A study of Mus musculus with 6 samples.

Results

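Mouse embryonic stem cells carrying the Alkbh5 del-cIDR allele were compared with wild-type (WT) cells by ATAC-seq, over 4 of the series' 6 libraries: del-cIDR replicates 1 and 2 and WT replicates 1 and 2. ATAC-seq uses a transposase to cut accessible DNA and tag it for sequencing, and each library is represented by its own list of called peaks. Members were chosen by genotype label, not by any measured value. Peaks on chromosomes 1 to 19 that shared at least 1 bp were joined into 253594 autosomal regions over the series, of which 230960 were called in at least 1 of these 4 libraries. Spike-in peaks and chromosome X stay outside the comparison.

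Both genotypes are in the male E14TG2a line. The cells grew with LIF (1000 U/ml), the MEK inhibitor PD0325901 (1 µM) and the GSK3 inhibitor CHIR99021 (3 µM) in a medium containing 15% fetal bovine serum. To each sample 10 µl of spike-in nuclei was added before transposition. A further pair of libraries came from Alkbh5 KO cells, and their calls are given only beside regions of the comparison. Whether the replicates came from different cultures is not in the labels, and their spread may be only technical. Each genotype may be a single line, in which case the allele and the line cannot be told apart. The labelled cell type was not checked against marker genes, because no gene annotation of the build used for the peaks (GRCm39) was used here.

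ALKBH5 is a nuclear demethylase that removes N6-methyladenosine, the most abundant internal modification of messenger RNA. The series title concerns intrinsically disordered regions, stretches of protein without a fixed fold, and del-cIDR names the deletion of one such part. The comparison asks how the accessible genome of cells with the truncated protein differs from that of WT cells. Accessible DNA in stem cells lies mainly at promoters, enhancers and sites of insulator proteins. Wide, tall ATAC-seq peaks are typical of active promoters and clustered enhancers, while a peak close to the minimum width rests on reads piled at a single point.

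The del-cIDR lists were shorter, and their peaks wider, than those of WT. WT replicates 1 and 2 held 189594 and 180903 autosomal peaks, and the del-cIDR replicates 154058 and 151352. The means were 185248 ± 6145 and 152705 ± 1913 (SD, n = 2), so del-cIDR had 82.4% as many peaks. The lists do not overlap between genotypes, and the exact two-sided permutation p was 0.333, the smallest that 2 libraries against 2 can give. Peaks covered 64.0 ± 1.99 Mb in WT and 58.0 ± 0.130 Mb in del-cIDR (SD, n = 2), which is 90.6% of the WT length. Median peak widths were 274 and 270 bp in WT and 300 and 305 bp in del-cIDR (exact two-sided permutation p = 0.333). The length of the lists thus differed more than the sequence they covered. Spike-in peaks were fewer as well, at 1679 and 1568 for WT against 1199 and 1104 for del-cIDR, or 70.9% as many. The KO lists, at 161122 and 147415 autosomal peaks with median widths of 296 and 310 bp, were also shorter and wider than those of WT. The narrowest peak on a list had 114 and 113 bp in WT, 123 and 125 bp in del-cIDR and 121 and 130 bp in KO. This lower limit of width thus also differed between genotypes. The part of depth and of that limit in these differences was not tested.

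Summit heights and backgrounds were read from the peaks themselves, since each deposited fold and p gives back a height in whole tags. WT libraries had a background of 1.09 and 1.18 tags, and del-cIDR libraries one of 1.14 each. The lowest summit called at that background stood at 5 tags in WT replicate 1 and at 6 in the other libraries. A missing call does not mean closed chromatin, since fainter summits are not listed. Total reads per library were not analysed here, so these values do not measure depth.

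WT-only regions, those with a call in each WT library and none in del-cIDR, numbered 13597. That is 9.26% of the 146915 that both WT libraries had and 5.89% of the regions with any call in the 4 libraries. The reverse pattern, del-cIDR-only, was found in 2299 regions, 1.87% of 122967 and 0.995% of those with any call. All 4 libraries shared 113466 regions (49.1%), and 59374 (25.7%) were called in a single library. These genotype-specific calls were faint. WT-only regions had a median height of 11 and 12 tags in the WT libraries and del-cIDR-only regions 10 tags in each del-cIDR library. Shared regions had medians of 29 and 32 tags in the WT libraries, and of 27 in both del-cIDR lists. WT-only peaks were 174 and 165 bp wide in the median and del-cIDR-only peaks 188 and 193 bp, against 364 to 375 bp for shared peaks. Both summits reached 20 tags in 1141 WT-only (8.39%) and 113 del-cIDR-only regions (4.92%), and both peaks reached 500 bp in 14 and 2.

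Loss of a call was graded by peak strength. Below the 10th fold percentile, 35.4% of the regions of both WT libraries were missing from del-cIDR, and 11.5% of those of both del-cIDR libraries were missing from WT. From the 40th to the 50th percentile the shares were 6.84% and 0.513%. From the 80th to the 90th they were 0.0484% and 0%, and above that 0.0659% and 0.0242%. A region was termed strong when its fold reached the list median in both libraries of its genotype. Of 79946 strong WT regions, 852 (1.07%) were missing from both del-cIDR libraries. Of 66272 strong del-cIDR regions, 32 (0.0483%) were missing from both WT libraries. Over all called regions these are 0.369% and 0.0139%.

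Most of the difference between the directions was gone when each list was reduced to its 151352 highest peaks by fold. The counts came to 6833 WT-only and 6219 del-cIDR-only regions, and the strong ones to 307 and 42. The excess on the WT side thus remained in the strong regions and nearly closed in the whole lists. With peaks of at least 250 bp only, the strong counts were 632 WT-only and 412 del-cIDR-only, a smaller excess. Narrower peaks were dropped from every list there, so a region with a narrower call in the other genotype counts as missing. On the full lists, 143 strong WT-only regions had a mean width of at least 250 bp. Strong del-cIDR-only regions numbered 2 from 250 bp to under 300 bp and 5 from 300 bp to under 400 bp, with none wider.

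**Figure D1:**
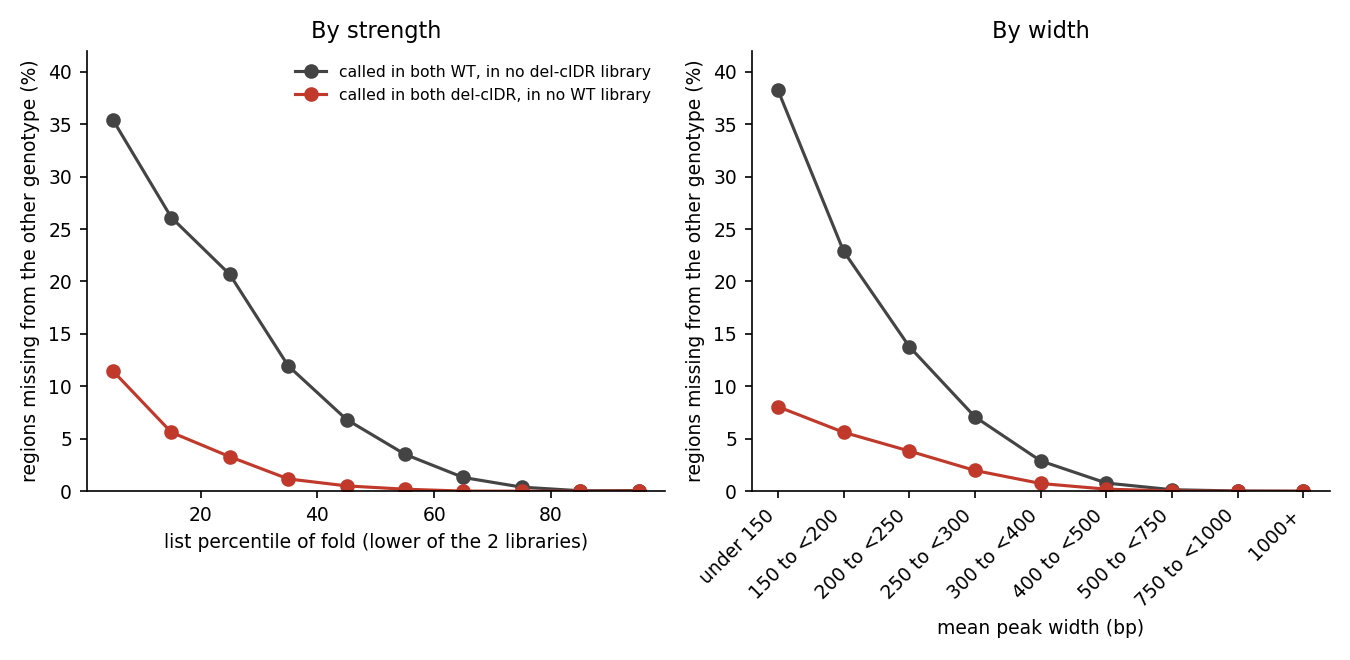
Regions shared by the replicates of one genotype and absent from both lists of the other, as a share (%), by list percentile of fold (left, steps of 10 points) and by mean peak width in bp (right). Points are shares over regions, without an error bar; both curves fall toward 0 with strength and width, from 35.4% and 11.5% below the 10th percentile and from 38.3% and 8.07% under 150 bp.

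Width separated kept from missing regions further. Of regions of both WT libraries with a mean width under 150 bp, 3753 of 9805 (38.3%) were missing from del-cIDR. The share was 22.9% from 150 bp, 13.8% from 200 bp, 7.10% from 250 bp and 2.90% from 300 bp, and 0 of 4201 regions of at least 1000 bp were missing. In the other direction it went from 346 of 4289 (8.07%) under 150 bp to 0 of 4892 at 1000 bp or more. The same order held within the strong regions, although fold still varies with width among them. Among strong WT regions, 298 of 1625 (18.3%) under 150 bp were missing from del-cIDR, against 5.04% in the next class (150 bp to under 200 bp) and 0.0320% from 500 bp to under 750 bp. Regions under 150 bp are 34.98% of the strong WT-only regions. The narrowest peaks of the del-cIDR lists, 123 and 125 bp, were wider than those of WT, 114 and 113 bp. What this adds to the missing narrow regions was not tested.

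Narrow strong peaks were also the ones that replicates did not share. Of strong peaks under 150 bp in WT replicate 1, 21.2% were missing from WT replicate 2, and in the reverse direction 15.1%. Between the del-cIDR replicates the shares were 25.4% and 19.5%. Of the narrow strong peaks of a WT library, 34.6% to 42.6% were missing from a del-cIDR library, which is above the shares within either genotype. Narrow strong peaks of a del-cIDR library, however, were missing from a WT library in 8.59% to 10.7%, fewer than from the other del-cIDR library. At 500 bp and more, the shares were at most 0.420% over the 12 ordered pairs of libraries.

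The same asymmetry stood with lists of equal length, a setting added after the data were seen. Of the strong peaks under 150 bp in a WT library, 28.9% to 34.2% were missing from a del-cIDR library and 11.3% to 15.3% from the other WT library. For those of a del-cIDR library the values were 9.47% to 11.1% in a WT library and 19.5% to 25.4% in the other del-cIDR library. Over strong peaks of any width, del-cIDR lists lacked 2.67% to 3.27% of WT peaks and 2.00% to 2.48% of each other's. WT lists lacked 1.24% to 1.35% of del-cIDR peaks and 0.903% to 1.12% of each other's. For narrow strong peaks and for those of any width, the list searched therefore moved the share more than whose peak it was. At 500 bp and more this order was not seen. There, WT lists lacked 0.0625% to 0.0906% of del-cIDR peaks and 0.00694% to 0.0640% of each other's. The del-cIDR lists lacked 0.104% to 0.192% of WT peaks and 0.0647% to 0.0658% of each other's.

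Strong regions that del-cIDR lacked were also called less often in KO than strong WT regions of the same width. Of the 298 strong WT-only regions under 150 bp, 47 (15.8%) were called in both KO libraries and 140 in neither, while both KO libraries called 612 of the 1625 strong WT regions of that width (37.7%). Of the 143 that were at least 250 bp wide, 76 (53.1%) were called in both KO libraries and 27 in neither, against 64052 of 66654 (96.1%) of the strong WT regions of that width. These shares are descriptions, with no test. They are matched for width and not for strength. From the 50th to the 60th fold percentile lay 559 of the 852 strong WT-only regions, against 15859 of the 79946 strong WT regions. The part of strength in the lower KO shares was not tested. Over all WT-only regions, 2892 were called in both, 3954 in 1 and 6751 in neither. Of the 2299 del-cIDR-only regions, 487 were called in both KO libraries, 704 in 1 and 1108 in neither. The KO and del-cIDR lists share the WT controls, so a region that both mutants lack rests on the same pair of WT calls.

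Single regions show what these classes hold. They were taken in order of fold among regions whose peaks were all at least 250 bp wide, and since calls and fold chose them, their values are descriptions. The WT-only region at chr15:84788512-84788875 (GRCm39) stood at 37 tags in WT replicate 1 and 35 in WT replicate 2 and was called in no mutant library. Its nearest shared neighbour lay 1.10 kb away. The region at chr10:74448288-74449032 stood at 22 and 35 tags in WT and at 28 and 30 in KO, with no call in del-cIDR. Its WT peaks were at least 447 bp wide, above the list medians. Both KO heights lay within the range of the WT heights.

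The next sites had the same pattern of calls. On chromosome 8, from 90309076 to 90309493, WT heights were 23 and 26 tags and KO heights 26 and 18. On chromosome 3, from 34445462 to 34445832, they were 23 and 24 in WT and 23 and 18 in KO. On chromosome 2, from 114126950 to 114127374, they were 24 and 23 in WT and 18 and 10 in KO. A further WT-only region reached 22 and 33 tags in WT and was called in no mutant library. The WT heights at these sites are well above the lowest summits on the WT lists.

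Without the width limit the 3 highest WT-only regions were narrow, with peaks of 114 to 154 bp in the libraries that called them, and the narrowest peaks of the 6 lists had 113 to 130 bp. Their KO calls differed from one to the next. The first, chr16:91331471-91331585, reached 1175 tags in WT replicate 1 and 1363 in WT replicate 2, and no mutant library called it. The second, chr8:3804398-3804520, had WT summits of 278 and 279 tags and 281 in KO replicate 1, and KO replicate 2 did not call it. The third, chr6:112948435-112948588, stood at 236 tags in each WT library, and both KO libraries called it, at 211 and 208.

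The wide del-cIDR-only regions were lower, apart from one at chr15:27517044-27517417 with 115 and 106 tags. On chromosome 7, from 113218933 to 113219387, both del-cIDR libraries had 17 tags, and on chromosome 4, from 58146591 to 58146958, they had 16 and 23. Neither site was called in WT or KO. On chromosome 10, from 25784062 to 25784664, the heights were 14 and 15 tags, again with no call in WT or KO. On chromosome 19, from 9459912 to 9460254, del-cIDR had 15 tags in both libraries and KO 9 and 7. A further region had 14 and 18 tags in del-cIDR and 10 in KO replicate 1. Of any width, chr1:5240657-5240981 stood highest, at 146 and 114 tags in del-cIDR and 110 in KO replicate 2, with no call in KO replicate 1.

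**Figure D2:**
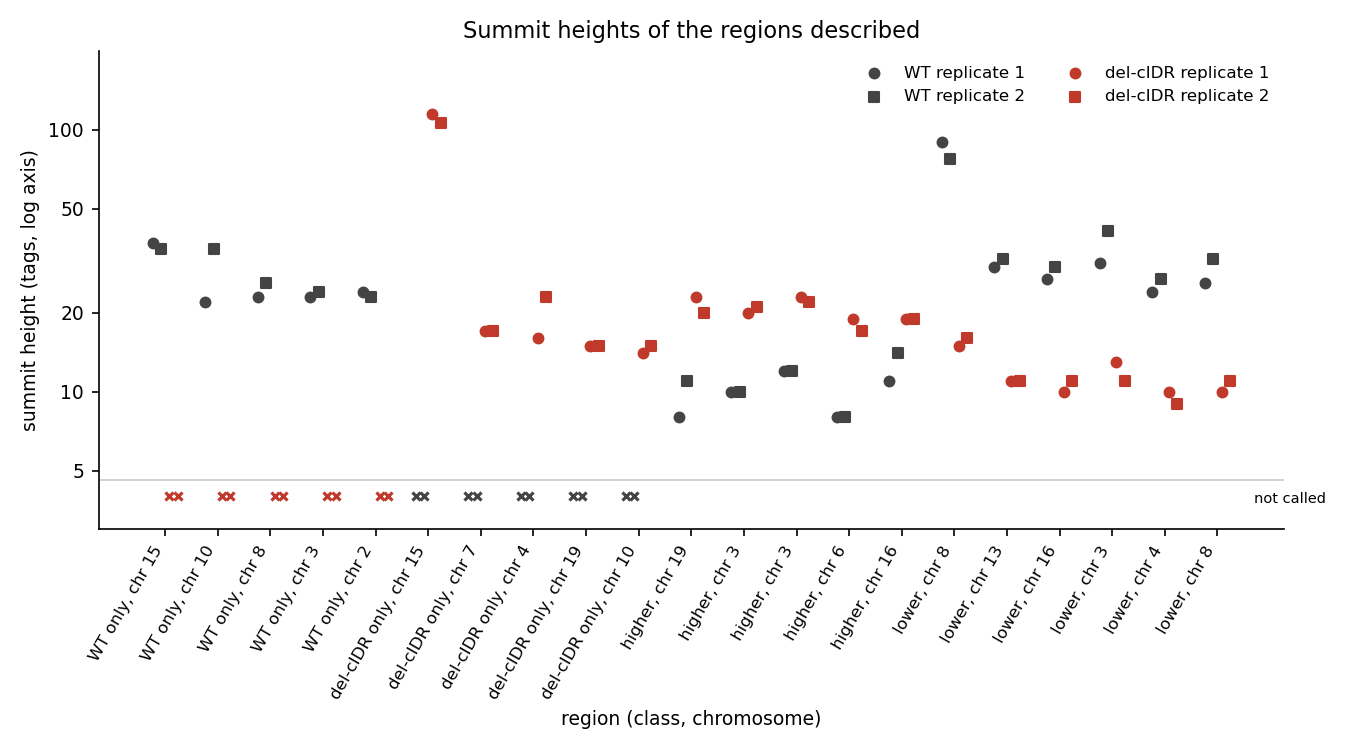
Summit height in tags (log axis) in each WT and del-cIDR library for regions named by rule, labelled by class and chromosome. Shown are the genotype-specific regions with peaks of at least 250 bp and the regions ranked higher or lower over all widths. Those whose coordinates are not reported here are left out. Crosses mark a library without a call. WT-only regions stand at 22 to 37 tags and most del-cIDR-only regions at 14 to 23, with the chromosome 15 region at 115 and 106; the values chose the regions, so the separation is no test.

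Neighbourhood was measured as the number of other shared regions within 50 kb. Shared regions had a median of 8 such neighbours, and WT-only and del-cIDR-only regions 7 each. No neighbour was present for 2.86% of shared and 5.31% of del-cIDR-only regions, with WT-only regions in between. Within each stratum up to the 80th fold percentile for WT and the 60th for del-cIDR, isolated regions were missing more often. Above those percentiles, at most 6 regions of a class were missing, with no such order in the top stratum. From the 20th to the 40th fold percentile, del-cIDR lacked 1052 of 4885 WT regions with 0 to 2 neighbours (21.5%) and 164 of 1965 with 15 or more (8.35%). From the 40th to the 60th percentile the shares were 7.22% and 1.26%. The del-cIDR-only regions gave the same order, with 12.4% and 5.93% up to the 20th percentile and 3.88% and 0.929% in the next stratum.

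The gradient is thus common to both directions. The fold is taken over a local background, so at the same fold a higher background goes with a taller summit. Whether this bears on the gradient was not tested, and the values that follow are over shared regions of any fold. The median local background was at the library background for shared regions with 0 to 2 neighbours. With 15 or more neighbours it was 3.66 and 3.69 times the library background in WT and 3.51 in both del-cIDR libraries. Median heights went from 21 and 23 tags to 41 and 46 in WT and from 20 tags in each to 40 and 39 in del-cIDR.

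The 113466 shared regions were ranked by fold within each list, as percentiles over these same regions, so the 4 lists have equal length here. Spearman's rho across regions was 0.911 between the WT libraries, 0.906 between the del-cIDR libraries and 0.885 to 0.890 between genotypes. By summit height it was 0.946, 0.942 and 0.923 to 0.927. These are descriptions across regions of the same libraries, and they place the genotypes only slightly further apart than replicates. A region was counted as ranked higher in del-cIDR when both del-cIDR percentiles exceeded both WT percentiles by at least 5 points. That held for 10038 regions (8.85%), and 10086 (8.89%) were ranked lower. With any gap the counts were 23704 (20.9%) and 22031 (19.4%). If labels were exchangeable, 2 libraries would separate fully from 2, in either direction, with a probability of 0.333 when no values tie. Ranks alone therefore show no overall direction, and they cannot show a change common to all regions.

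Among the width classes, the widest differed most between genotypes by fold rank. For the 4344 shared regions with a mean width of at least 1000 bp, the median fold rank was 71.5 and 71.1 in WT and 73.9 and 73.8 in del-cIDR. The difference was 2.54 points, above the spread between replicates (exact two-sided permutation p = 0.333, the smallest possible). In this class 399 regions (9.19%) were ranked higher in del-cIDR and 85 (1.96%) lower, beside the 8.85% and 8.89% of all shared regions. Compared with all shared regions, the share ranked lower was smaller and the share ranked higher about the same. From 500 bp to under 1000 bp, 2276 of 29144 were higher and 1526 lower. From 250 bp to under 500 bp, the balance was the opposite, with 4912 of 54265 higher and 5806 lower, and under 250 bp 2451 and 2669 of 25713.

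Ranked by summit height, wide regions kept that order with a smaller difference. Median height ranks were 88.4 and 88.5 in WT and 89.5 and 89.3 in del-cIDR, a difference of 0.90 points. At 250 bp to under 500 bp the height difference was larger, at -1.24 points (45.2 and 45.2 in WT, 43.6 and 44.3 in del-cIDR). By height 197 wide regions (4.53%) were ranked higher and 61 (1.40%) lower, against 7.95% and 8.3% of all shared regions. Ranks near the top of a list leave little room to move, so the regions were also split by height. Between the 60th and 80th percentile of mean height rank, 107 of 943 wide regions were higher by height and 27 lower. In the same stratum, regions of 250 bp to under 500 bp gave 708 higher and 978 lower of 11263. From the 40th to the 60th percentile, 50 of 296 wide regions were higher and 13 lower. Above the 80th percentile, which holds 3016 of the 4344 wide regions, 20 were higher by height (0.663%) and 17 lower (0.564%). In that stratum at most 2.57% of any width class passed the gap by height in a given direction. The height counts there therefore cannot show whether the tallest wide regions share the excess. By fold, 193 of these 3016 wide regions were higher and 33 lower. At matched height from the 40th percentile up, wide regions were also ranked higher by fold more often than narrower ones. From the 60th to the 80th percentile, 15.3% of wide regions were higher by fold, against 5.68% under 250 bp and 8.84% from 500 bp to under 1000 bp. From the 20th to the 40th percentile the shares were close, at 12.8% of 86 wide regions and 13.0% from 500 bp to under 1000 bp.

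In tags, the median wide region stood at 83 and 94 in WT and at 90 and 88 in del-cIDR. Relative to the median shared region of its own list that is 2.86 and 2.94 times in WT and 3.33 and 3.26 times in del-cIDR. For regions under 250 bp the ratios were 0.621 and 0.656 in WT and 0.667 and 0.630 in del-cIDR, which overlap. The spread of heights within the lists also differed. The 95th percentile over the median was 4.28 and 4.38 in WT and 4.81 and 4.78 in del-cIDR. Wide regions held more than one called peak in 14.7% and 12.4% of cases in WT and in 7.83% and 7.46% in del-cIDR.

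**Figure D3:**
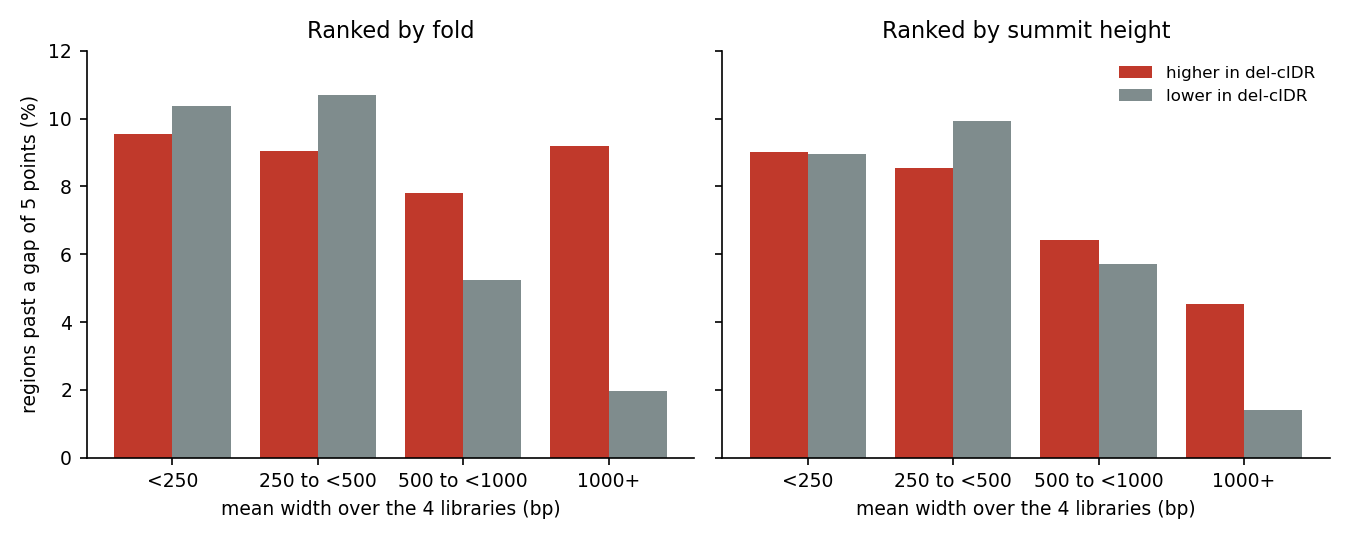
Share of shared regions (%) whose rank was higher (red) or lower (grey) in both del-cIDR libraries than in both WT libraries by at least 5 points, by mean width in bp, ranked by fold (left) and by summit height (right). Bars are shares over regions, without an error bar; at 1000 bp and more, 9.19% were higher and 1.96% lower by fold, and 4.53% and 1.40% by height.

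The wide regions with the largest gaps, which fold ranks chose, show modest changes. At chr17:37521523-37522698 WT summits had 41 and 45 tags, del-cIDR summits 57 and 60 and KO summits 46 and 39. At chr4:148025182-148026366 they were 46 and 53 in WT, 67 and 70 in del-cIDR and 75 and 59 in KO. The third, on chromosome 15 from 102263671 to 102264879, had WT heights of 37 and 42 tags and del-cIDR heights of 39 and 38. Heights overlapped there, and the local background differed, at 7.35 and 7.39 times the library background in WT and 4.24 and 4.49 times in del-cIDR. A high fold rank is therefore not always a taller summit.

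In the opposite direction, chr13:56282409-56283823 had 45 and 59 tags in WT, 33 and 34 in del-cIDR and 51 and 50 in KO. On chromosome 9, from 82933031 to 82934224, the heights were 61 and 65 in WT, 42 and 31 in del-cIDR and 28 in each KO library. On chromosome 8, from 115762633 to 115763688, they were 64 and 61 in WT, 30 and 34 in del-cIDR and 60 and 50 in KO. In all 3, both del-cIDR summits lay below both WT summits.

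Over regions of any width, the largest gap by fold rank was at chr8:35884442-35885006. It stood at 90 and 77 tags in WT, 15 and 16 in del-cIDR and 83 and 71 in KO. Its ranks among shared regions were 98.8 and 94.4 in WT and 14.4 and 16.0 in del-cIDR. Peak width went with height there, at 471 and 407 bp in WT and 223 and 134 bp in del-cIDR. The next, on chromosome 13 from 97553694 to 97554103, had 30 and 32 tags in WT, 11 in each del-cIDR library and 20 and 13 in KO. Its peaks were not narrower in del-cIDR, at 389 and 364 bp against 286 and 323 bp in WT.

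A further 3 regions ranked lower had KO heights that differed among themselves. On chromosome 16, from 73660707 to 73660958, there were 27 and 30 tags in WT, 10 and 11 in del-cIDR and 13 and 7 in KO. On chromosome 3, from 30627733 to 30628115, the WT heights were 31 and 41, the del-cIDR heights 13 and 11, and the KO heights 24 and 9. On chromosome 8, from 73188805 to 73189099, heights were 26 and 32 in WT, 10 and 11 in del-cIDR and 19 and 16 in KO. The first of these had low heights in both mutants, while the KO libraries lay between WT and del-cIDR at the last.

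Regions ranked higher had smaller gaps, 40.1 to 46.7 points for the 6 taken by rule against 52.1 to 78.4 points for the 6 ranked lower. At chr19:31728792-31729091 the heights were 8 and 11 tags in WT, 23 and 20 in del-cIDR and 15 and 17 in KO. A pair of regions lay on chromosome 3. From 127715701 to 127716128 there were 10 tags in each WT library, 20 and 21 in del-cIDR and 23 and 19 in KO, and from 139279352 to 139279643 there were 12 in each WT library, 23 and 22 in del-cIDR and 15 and 13 in KO. On chromosome 6, from 74697024 to 74697431, heights were 8 in each WT library, 19 and 17 in del-cIDR and 19 and 15 in KO. This site had no shared neighbour within 50 kb. On chromosome 16, from 29918043 to 29918586, the heights were 11 and 14 in WT, 19 in each del-cIDR library and 11 and 15 in KO, among 20 neighbours. A further region without a KO call went from 8 and 11 tags in WT to 27 and 21.

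By neighbourhood, shared ranks differed little. Regions with 0 to 2 neighbours had a median fold rank of 51.5 and 54.0 in WT and 52.1 and 52.9 in del-cIDR, a difference of -0.23 points within the spread of the WT replicates. Regions with 15 or more neighbours had 40.4 and 38.9 in WT and 39.9 and 39.8 in del-cIDR. The class with 10 to 14 neighbours was 0.79 points higher in del-cIDR by fold (46.0 and 45.9 against 46.7 and 46.8) and -0.15 points by height, so the direction flipped with the measure. The largest difference over the 5 classes and both measures was 1.01 points, for 0 to 2 neighbours by height.

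Differences in height rank were weakly alike between close adjacent regions. Over the 3655 pairs of adjacent shared regions less than 1 kb apart, the difference in height rank (del-cIDR mean minus WT mean) of one correlated with that of the other at Pearson r = 0.174. The same r was 0.0187 for the difference between the WT replicates and 0.0170 for that between the del-cIDR replicates. It fell with distance, to 0.116 at 1 to 2 kb, 0.100 at 2 to 5 kb, 0.0535 at 5 to 10 kb and 0.0258 at 100 kb and more. The replicate differences stayed between -0.0217 and 0.0187 at every distance. Without chromosomes 6, 8 and 12, where heights in del-cIDR are lower over long stretches, r was 0.153 under 1 kb and 0.0220 at 100 kb and more. The difference between replicates is a single library against another and that between genotypes a mean of 2, so their errors are not the same. The pairs come from the same 4 libraries, so no p is given.

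Ranked by fold, the differences of close adjacent regions had a weak negative correlation, and so did those between replicates. For the 29636 pairs under 5 kb, r was -0.194 between genotypes, -0.144 between the WT and -0.140 between the del-cIDR replicates. Beyond 5 kb it was at most 0.0134 between genotypes. The local background in the fold is shared between close regions. Its log2 difference correlated at 0.971 under 1 kb between genotypes and at 0.921 and 0.907 between replicates. Whether that background produces the negative r was not tested.

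**Figure D4:**
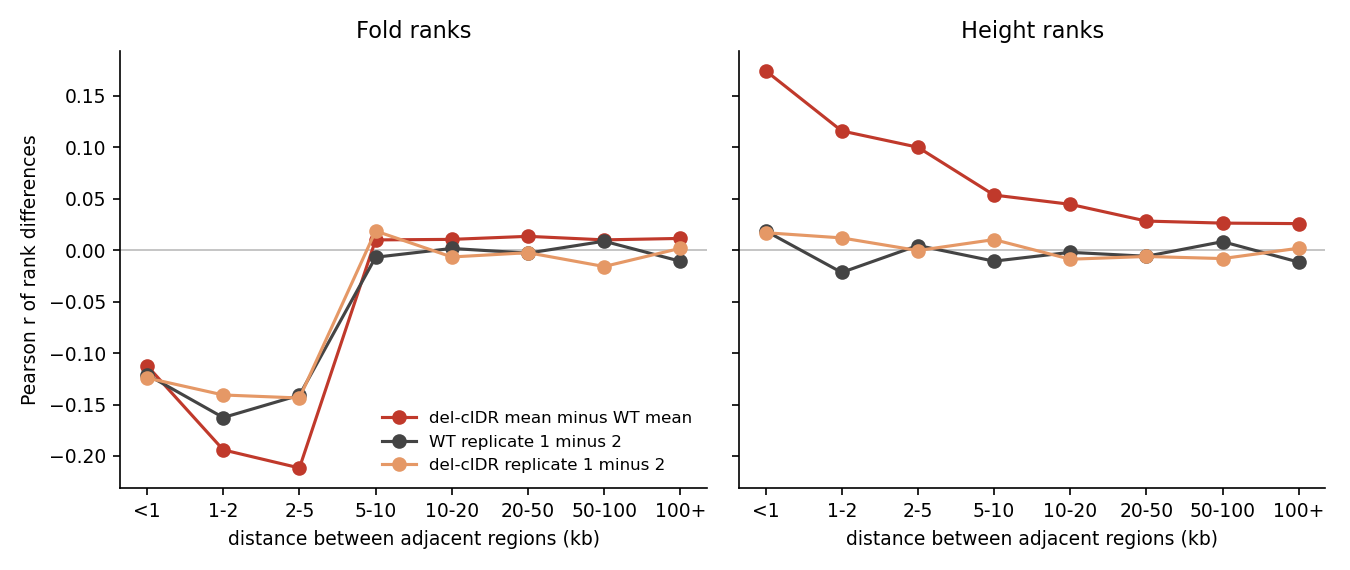
Pearson r between adjacent shared regions of their difference in fold rank (left) and height rank (right), by distance in kb, for del-cIDR minus WT (red), WT replicates (dark) and del-cIDR replicates (orange). Points are r over pairs of regions, without an error bar; by height only the difference between genotypes stands above 0.02, at 0.174 under 1 kb, while by fold all 3 lie below 0 under 5 kb.

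Long stretches were examined in windows of 1 Mb with at least 20 shared regions, each given the median height rank per library. Heights were not corrected for DNA copy number, which cannot be told apart from accessibility over a stretch here. Of 1777 windows, both del-cIDR medians lay above both WT medians in 418 (23.5%) and below in 368 (20.7%). The share of all shared regions whose heights do not overlap between genotypes was 22.3% above and 21.3% below. With exchangeable labels the probability of such separation in either direction is again 0.333 when no values tie. The windows of chromosomes 6, 8 and 12 were mostly on the low side, 142 of 282 (50.4%) against 19 above. Over the other autosomes 399 of 1495 (26.7%) lay above and 226 (15.1%) below. By at least 5 points, 28 of these lay above and 17 below. Ranks are percentiles over all shared regions, so low ranks on chromosomes 6, 8 and 12 raise those of the other autosomes by construction. How much of the excess above comes from that was not tested. The calls followed the same chromosomes. WT-only regions were 10.6%, 10.8% and 10.7% of the WT regions of chromosomes 6, 8 and 12, and 7.94% to 9.63% on the others. The del-cIDR-only regions were 1.35%, 1.31% and 1.61% there and 1.71% to 2.35% elsewhere.

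Outside chromosomes 6, 8 and 12, the window with the largest gap was on chromosome 4, between 133 and 134 Mb. It was picked for that gap, so its values are a description. Here too, DNA copy number was not measured, so lower heights are not by themselves lower accessibility. The 108 shared regions there had a median height rank of 73.9 and 76.0 in WT and 57.0 in both del-cIDR libraries. Relative to the median shared region of each list, the median log2 height was 0.77 and 0.88 in WT, 0.24 and 0.22 in del-cIDR and 0.97 and 0.82 in KO. The KO libraries were thus near WT there, while in the 1 Mb on either side they lay above WT. Before it, KO had 0.70 and 0.76 against 0.37 and 0.49 in WT. After it, the values were 0.43 and 0.34 against 0.19 and 0.17. The median difference between del-cIDR and WT was -0.59 on the log2 scale. Both del-cIDR heights were below both WT heights in 88 of the 108 regions (81.5%) and above in 5. By height rank 75 (69.4%) were lower by at least 5 points, against 8.3% of all shared regions.

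The difference was small on either side of this stretch. In the 1 Mb before it the median difference was -0.03 over 114 regions, with 24 below and 20 above. In the 1 Mb after it the difference was 0.11 over 126 regions, with 24 below and 25 above. The bins of 200 kb inside differed by -0.58, -0.75, -0.60, -0.59 and -0.33 in order along the chromosome. The bin just before differed by -0.15, with both del-cIDR medians below those of WT and KO, and the bin just after by 0.11. Calls went with heights, since 27 of the 156 regions that both WT lists held there (17.3%) were missing from del-cIDR, against 9.26% over the autosomes. The region at chr4:133768777-133769468 lies in this stretch and is among the 6 autosomal regions with the largest downward gap. Its heights were 24 and 27 tags in WT, 10 and 9 in del-cIDR and 23 and 16 in KO, and its peaks were 563 and 554 bp wide in WT and 164 and 142 bp in del-cIDR.

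**Figure D5:**
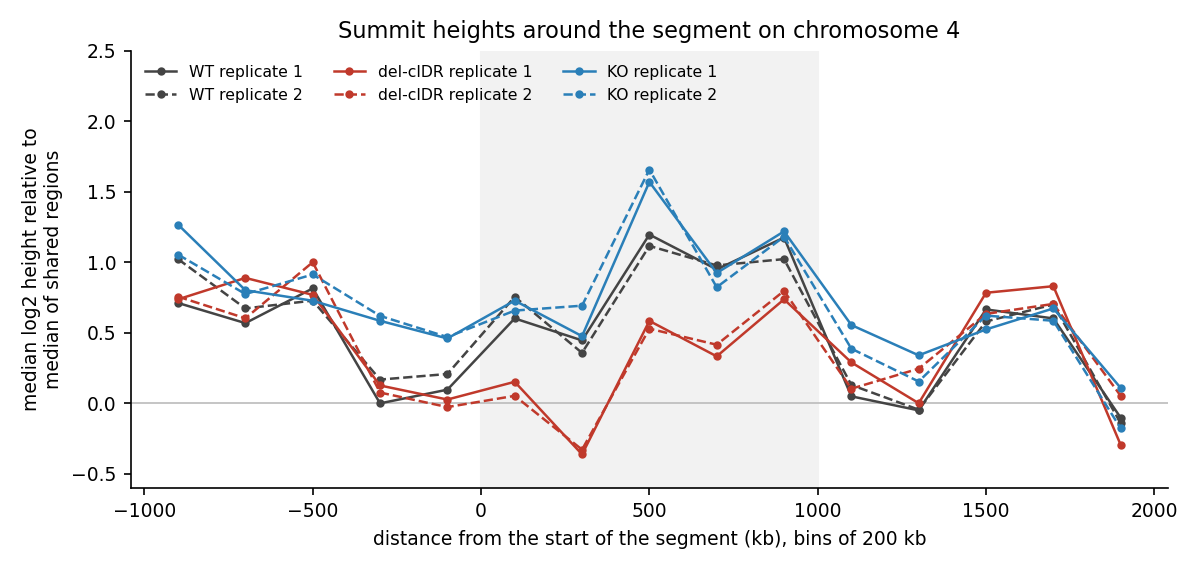
Median log2 summit height of shared regions relative to the median shared region of the same list, in bins of 200 kb, by distance in kb from the start of the 1 Mb stretch on chromosome 4 (shaded), for each of the 6 libraries. Inside the stretch both del-cIDR lines lie below those of WT and KO in every bin, as they do by less in the bin just before it; the stretch was chosen for this difference.

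The other windows with large gaps held fewer regions. On chromosome 7 between 71 and 72 Mb (29 regions), median height ranks were 52.4 and 50.1 in WT and 36.9 and 37.6 in del-cIDR. On chromosome 1 between 125 and 126 Mb (32 regions), they were 62.0 and 63.7 in WT and 47.3 and 50.8 in del-cIDR. The largest gap upward was on chromosome 9 between 4 and 5 Mb (29 regions), at 43.2 and 41.5 in WT and 54.2 and 53.3 in del-cIDR. Chromosome 2 between 109 and 110 Mb (28 regions) followed, at 49.0 and 49.3 against 58.4 and 59.1. Each of these was also chosen for its gap.

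Summit positions did not separate the genotypes. The median distance between the summits of a shared region was 21 bp for the WT replicates, 24 bp for the del-cIDR replicates and 22 to 24 bp between genotypes. Summits lay over 100 bp apart in 9.65% and 10.8% of regions within genotypes and in 10.1% to 10.7% between them.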

How the data were processed

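The submitters' processing notes name MACS2, with BWA, SAMtools, Picard, fastp and featureCounts, and build GRCm39. Versions, settings and any shift of reads to the cut site are not stated there. The authors deposited 1 peak list per library, with replicates called separately. The fold in the deposited lists is a ratio, summit pileup over local background, and the deposited significance is −log10 of its p-value and q-value (no q above 0.05). The authors' score, also deposited, restates the −log10 q times 10 in nearly all peaks and was not used. Values were used within their own list.

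Heights in tags were solved from fold and p, and a whole number within a relative tolerance of 0.0001 came out for 100% of peaks. Peaks on chromosomes 1 to 19 were joined at 1 bp overlap across the 6 libraries, leaving out the spike-in sequence, X and other sequences. The tallest peak by fold stands for a region that holds several. Groups and replicate numbers come from the titles. Numbers were compared with exact permutation tests over the 4 libraries, and single regions were not tested. The pairing check gave r = -0.00722 between deviations of same-numbered libraries, so the numbers pair nothing.

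Regions were named by rule: with peaks of at least 250 bp, the 6 of each genotype-specific kind with the highest lower list percentile of fold; without a width limit, the 3 of each kind; the 6 shared regions in each direction with the largest rank gap; and the 3 in each direction among those at least 1000 bp wide in each library. Regions already prominent are given briefly and some coordinates are not reported here. The members and lists were chosen with earlier results of these data known. Height ranks, windows, pairs at equal list length and the chromosome 4 stretch were chosen after seeing the data. Planned classes by promoter, gene lists, marker checks and sequences were not run, because the reference used here is of another build. Scripts were tested on simulated data and run in Python 3.11.15 with numpy 2.4.6, pandas 2.3.3, scipy 1.17.1 and matplotlib 3.10.9.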

Additional observations from a re-analysis of the deposited data

Results flagged for a closer look

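Chromosome X lies outside the autosomal comparison. It held 2.33% ± 0.0106 of the mouse peaks of del-cIDR and 2.09% ± 0.0406 of those of WT (SD, n = 2). The level in both del-cIDR libraries (2.34% and 2.33%) was above that in both WT libraries (2.12% and 2.06%), which is what drew attention to it, and the exact two-sided permutation p was 0.333, the smallest possible.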

How the results depend on the processing

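The 13597 WT-only regions became 6833 with lists of equal length by fold, 6481 by −log10 p and 5458 with peaks of at least 250 bp, and 2299 del-cIDR-only regions became 6219 and 5635 at equal length by fold and −log10 p. The 852 strong WT-only regions became 302 at −log10 q of at least 5 and 307 under both equal lengths. The 32 strong del-cIDR-only regions became 6 at −log10 q of at least 5, 52 at equal length by −log10 p and 412 with peaks of at least 250 bp. With peaks of at least 250 bp, a narrower call in the other genotype counts as missing. At −log10 q of at least 5, the difference in peaks per list was -20296 in place of -32544 and that in median width 23.5 bp in place of 30.5 bp. Leaving out a library requires fewer calls and gave 22974 to 38496 WT-only, 5855 to 11125 del-cIDR-only, 2120 to 2917 strong WT-only and 192 to 230 strong del-cIDR-only regions. Leaving out a library, 21854 to 23647 shared regions were ranked higher and 21029 to 23012 lower. A gap above 0 gave 23704 and 22031, and one of at least 10 points 4470 and 4878.

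With the replicate block, in which only same-numbered libraries are compared, 15077 shared regions were ranked higher and 14668 lower; same-numbered libraries share only a number.

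The rank difference of wide regions, 2.54 points, was 1.15 by −log10 p, 0.90 by height and 2.17 to 2.74 with a library left out. That of regions with 0 to 2 neighbours ranged from -1.70 to 0.13 with a library left out (-1.70 without WT replicate 2), and with 15 or more neighbours from -0.63 (without WT replicate 2) to 1.58 (without del-cIDR replicate 2). Directions turned in every neighbourhood class under some setting. By height, 0 to 2 neighbours gave 1.01 in place of -0.23, and 15 or more gave -0.25 in place of 0.24. By −log10 p these classes gave 0.036 and -0.34. The class of 6 to 9 neighbours gave 0.14 by −log10 p, and that of 10 to 14 gave -0.10 by −log10 p and -0.15 by height. For 3 to 5 the value was 0.48 with a window of 500 kb and classes of equal size. With a library left out it was -1.98 to 0.075, the highest without WT replicate 2. Regions under 250 bp went from 0.52 to -0.63 without WT replicate 2, and the wider classes kept their sign. The r of adjacent regions under 5 kb, -0.194 by fold, was -0.057 by −log10 p, -0.198 without chromosomes 6, 8 and 12 and 0.114 by height; the cause was not tested. The settings by height were added after seeing the data. Alternatives for promoter and distal classes were not run, for want of an annotation of the build. At the library background, calls are limited to summits of at least 5 or 6 tags.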
